A study of Mus musculus with 7 samples.

Results

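Iron and heme handling was examined through 9 genes in mouse bone marrow-derived dendritic cells (BMDCs), chosen by symbol from the 28666 genes of the deposited table: Hmox1, Blvrb, Slc40a1, Slc11a1, Slc11a2, Tfrc, Fth1, Ftl1 and Ncoa4. All 9 were in the table under a gene ID each, and all 9 passed the filter on low counts that left 17461 genes. RNA was sequenced from BMDCs in 3 libraries labelled immature and 4 labelled mature. The cells were grown from bone marrow of female C57BL/6 mice aged 6 to 8 weeks, with GM-CSF and IL-4 over 7 days, and were placed in a Transwell system with MC38, a mouse colon carcinoma line, before flow sorting. The study's text gives 24 h of DON, a glutamine antagonist, and its legend names DMSO or DON at 5 µM. The labels give the developmental stage of each library but no treatment, sorting marker or animal, so the p-values measure the spread between these libraries, which may be technical. Cells of this kind of culture are a mixture of dendritic and macrophage-like cells, and in bulk RNA fewer cells of a type and less RNA per cell cannot be told apart.

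Iron enters a cell bound to transferrin through the transferrin receptor and is carried across the endosomal membrane by divalent metal transporters. Phagocytes also take up iron in the heme of engulfed red blood cells, which heme oxygenase opens to biliverdin, carbon monoxide and free iron. Iron that is not used is held in ferritin, a hollow shell of heavy and light chains, or leaves through ferroportin, the exporter that macrophages use to return iron to the blood. Iron regulatory proteins bind iron-responsive elements, short hairpins in the UTRs of some of these mRNAs, when the cell is short of iron. Bound at the 5′ end they block translation, and bound at the 3′ end they protect the mRNA from decay.

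Matches to a pattern of these elements are shown for 4 of the 9 genes, and whether iron acts on their mRNAs was not measured. They were found in GENCODE M21 transcripts as a C, any 5 bases and the loop CAGTGN with A, C or T at its end, where the 5 bases on either side of the loop pair. The motif was present in 222 of 21901 genes with a coding transcript (1.01%) and in a UTR of 123 (0.562%). Ferritin heavy chain (Fth1), ferritin light chain (Ftl1) and ferroportin (Slc40a1) each had 1 element in the 5′ UTR, and the transferrin receptor (Tfrc) had 4 in the 3′ UTR. Each is given 5′ to 3′ on the strand of the gene over 30 bases of GRCm38, with the 6 loop bases in capitals.
Fth1, 5′ UTR, chr19:9982732-9982761, plus strand: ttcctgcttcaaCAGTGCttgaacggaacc
Ftl1, 5′ UTR, chr7:45459778-45459807, minus strand: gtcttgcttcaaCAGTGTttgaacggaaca
Slc40a1, 5′ UTR, chr1:45925464-45925493, minus strand: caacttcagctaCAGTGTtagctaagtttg
Tfrc, 3′ UTR, chr16:32631219-32631248, plus strand: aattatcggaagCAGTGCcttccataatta
Tfrc, 3′ UTR, chr16:32631598-32631627, plus strand: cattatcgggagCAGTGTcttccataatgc
Tfrc, 3′ UTR, chr16:32631663-32631692, plus strand: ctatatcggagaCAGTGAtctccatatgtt
Tfrc, 3′ UTR, chr16:32631710-32631739, plus strand: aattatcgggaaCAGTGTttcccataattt
These are matches of letters, and binding of a protein to them was not measured. No match was found in the transcripts of Hmox1, Blvrb, Slc11a1, Slc11a2 or Ncoa4, which says only that this pattern of letters is not in them. An element whose bases beside the loop do not all pair would be missed.

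The libraries held 54846746 to 67973086 counts each. Mature replicate 3 stood apart, with a median chi-square per gene of 17.7 to 25.6 against the other mature libraries, where the other pairs of a group gave 3.83 to 5.27 and sampling noise would give 0.455. Longer transcripts had lower log2 ratios to the rest of the group in mature replicate 3 (Spearman's rho of -0.43 across genes), and higher ones in mature replicates 1, 2 and 4 (rho of 0.22 to 0.33). For these last the rest of the group includes mature replicate 3, so their values are not independent of it. Mature replicate 1 was low in heart muscle genes, with 12.2 summed FPKM over 8 cardiac genes against 249 to 264 in mature replicates 2 to 4 and 1.81 to 1.97 in immature libraries. Tnni3 alone held 11.2 of the 12.2, and the highest of the other cardiac genes in that library was Actc1, at 0.38. Of 11 macrophage markers, all 11 were lower in mature cells, their summed FPKM being 1127 to 1169 in immature and 223.6 to 269 in mature libraries, and none was at 0. Of 9 dendritic cell markers 6 were called higher (Flt3, Zbtb46, Cd80, Cd86, Ccr7 and Fscn1) and none was called lower. Their summed FPKM was 1012 to 1064 and 2540 to 2903, of which Ccr7 alone held 86.5 to 92.0 and 1147 to 1283. Elsewhere the study takes CD80 and CD86 as the marks of mature cells, so these rises may follow from the sort. The sum is thus no measure of dendritic identity. H2-Ab1 and H2-Aa were not called (log2 fold changes 0.056 and 0.53). Itgax, which encodes CD11c, had an FPKM of 240.0 to 260.7 in immature and 160.8 to 227.2 in mature libraries (log2 fold change -0.41, edgeR adjusted p = 0.0124), under the fold criterion. Erythroid markers were near 0, at 0.10 to 0.43 in immature and 1.64 to 4.96 in mature libraries, with 4 of 5 tested called higher. Carcinoma epithelial markers (1 of 5 tested higher) summed to 17.3 to 21.3 and 13.8 to 21.8, and neutrophil markers (1 of 4 tested lower) to 4.83 to 7.3 and 7.66 to 9.55. The part of the macrophage signal, and of the heart muscle signal, in the values below was not tested.

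Most of the 9 genes were lower in mature BMDCs. The unit of level is CPM, in which each library's counts are divided by its TMM-adjusted total. A gene was called when edgeR's quasi-likelihood test gave a Benjamini-Hochberg adjusted p under 0.05 over all genes tested and its log2 fold change was 1 or more in size, the criteria of the study. By these criteria 6 of the 9 genes were called lower and none higher: Tfrc, Slc40a1, Hmox1, Slc11a1, Ftl1 and Fth1. Of all 17461 genes tested, 9.95% were called lower, 13.2% were called higher and 23.1% were called in either direction. The median log2 fold change was -1.29 over the 9 genes and 0.055 over all genes tested. In 8 of the 9 the CPM of the 2 groups did not overlap, which held for 52.1% of all genes. Without the mature libraries 1 and 3, 7 of the 9 were called, with Blvrb added. That setting keeps mature replicates 2 and 4, which both hold the heart muscle signal.

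**Figure D1:**
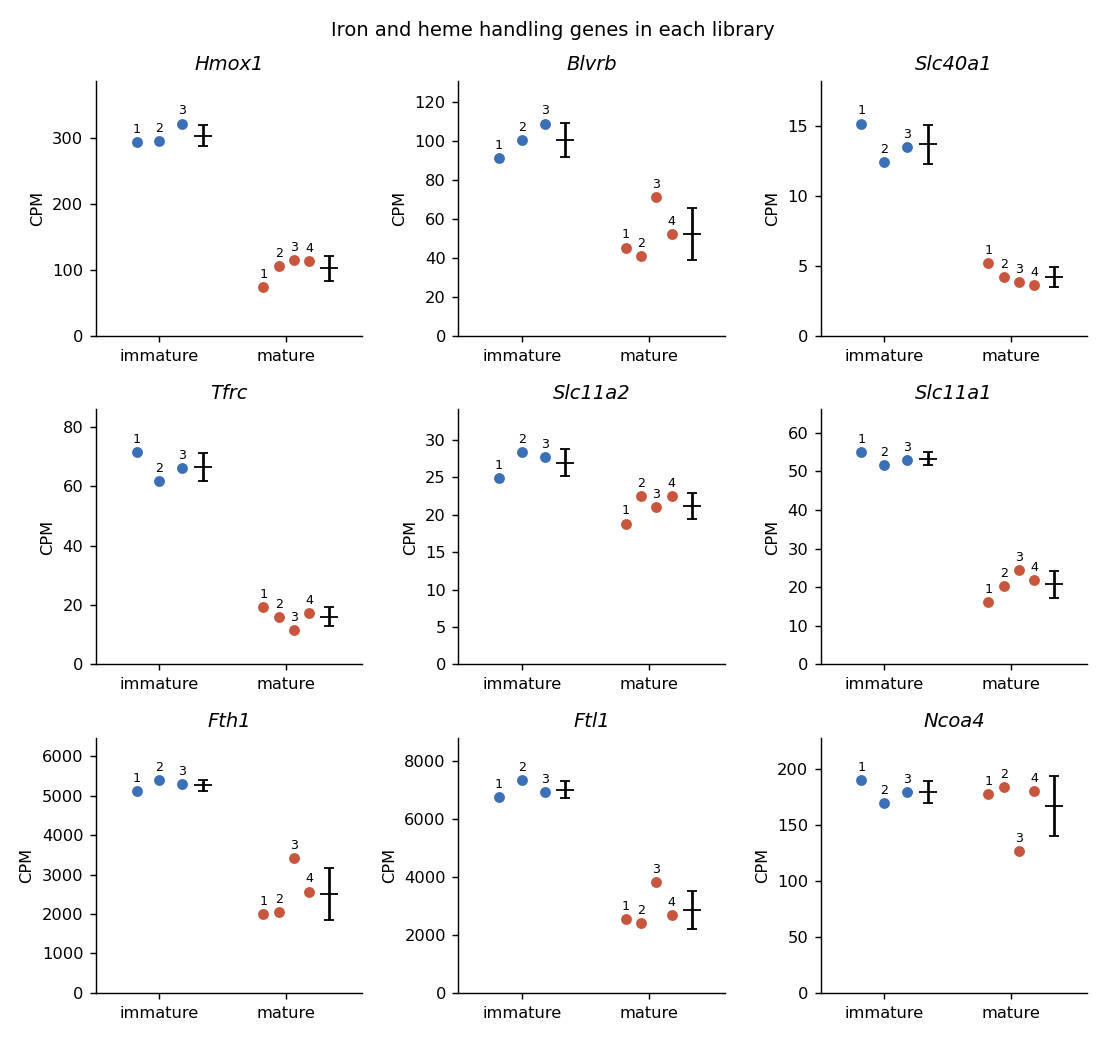
CPM of each of the 9 genes (y axis, from 0) in the 3 immature (blue) and 4 mature (red) libraries, with the replicate number at each point and the mean and SD in black. In all but Ncoa4 every mature library lies below every immature library, and mature replicate 3 is the highest mature library for Hmox1, Blvrb, Slc11a1, Fth1 and Ftl1 and the lowest for Tfrc and Ncoa4.

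Heme breakdown was represented by its first enzyme, heme oxygenase 1, and by biliverdin reductase B. Hmox1 (ENSMUSG00000005413, chr8:75093621-75100589, plus strand), the inducible heme oxygenase, stood at 294, 296 and 323 CPM in immature replicates 1 to 3. In mature replicates 1 to 4 it stood at 74.8, 106, 116 and 114 CPM. The lowest immature library was thus well above the highest mature library, and mature replicate 1 was the lowest of all. The mean fell from 304 ± 16.1 (SD, n = 3) to 103 ± 19.2 (SD, n = 4), or to 33.8% of the immature level. The fitted log2 fold change was -1.57 (SE 0.15, 95% interval -1.90 to -1.23, edgeR adjusted p = 4.12e-05), and it was -1.44 without mature replicate 1.

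Blvrb (ENSMUSG00000040466, chr7:27447978-27466144, plus strand), which reduces biliverdin and flavins and is abundant in red blood cells, showed a change near the threshold of fold. Its CPM was 91.6, 101 and 109 in the immature libraries and 45.4, 41.2, 71.2 and 52.2 in the mature libraries. The groups did not overlap, and mature replicate 3 was the nearest to the immature libraries. The log2 fold change was -0.94 (SE 0.18, 95% interval -1.34 to -0.53, edgeR adjusted p = 0.00254), which passed the p but not the fold criterion. It met both without mature replicate 3 (-1.09, edgeR adjusted p = 7.95e-06), without immature replicate 1 (-1.01, edgeR adjusted p = 0.00659) and without both mature libraries 1 and 3 (-1.09).

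Iron export rests on Slc40a1 (ENSMUSG00000025993, chr1:45908068-45926523, minus strand), which encodes ferroportin and is the least abundant of the 9. It stood at 15.2, 12.4 and 13.5 CPM in immature and at 5.24, 4.25, 3.86 and 3.63 CPM in mature libraries, from 690 to 891 and 204 to 346 counts. All mature libraries were close to each other and below the immature ones. The mean went from 13.7 ± 1.4 to 4.24 ± 0.713, or 31.0% of the immature level, with a log2 fold change of -1.69 (SE 0.16, 95% interval -2.06 to -1.32, edgeR adjusted p = 4.51e-05). On the log2(FPKM + 1) scale, which understates changes at such low FPKM, limma gave -0.69 (adjusted p = 0.000256), under the fold criterion.

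Iron uptake was covered by Tfrc and Slc11a2, and transport out of the phagosome by Slc11a1. Tfrc (ENSMUSG00000022797, chr16:32608920-32632794, plus strand), the transferrin receptor CD71, had the lowest share of its immature level left among the 9. Immature replicates 1 to 3 gave 71.6, 62.0 and 66.2 CPM and mature replicates 1 to 4 gave 19.3, 15.9, 11.7 and 17.2 CPM. Mature replicate 3 was the lowest library, and the groups lay far apart. The mean fell from 66.6 ± 4.85 to 16 ± 3.21, or to 24.1%, with a log2 fold change of -2.05 (SE 0.16, 95% interval -2.42 to -1.69, edgeR adjusted p = 1.28e-05).

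Slc11a2 (ENSMUSG00000023030, chr15:100387898-100424092, minus strand) encodes DMT1, which moves iron out of the endosome in most cells. It had 24.9, 28.4 and 27.7 CPM in immature and 18.8, 22.5, 21 and 22.5 CPM in mature libraries. These values lay close together, with mature cells at 78.7% of the immature mean. The log2 fold change was -0.35 (SE 0.10, 95% interval -0.58 to -0.12, edgeR adjusted p = 0.021), below the fold criterion. Over the alternatives its log2 fold change ran from -0.41 to -0.19 and its adjusted p from 0.0176 to 0.109. In FPKM the groups overlapped, since the lowest immature library had 3.46 and the highest mature library 3.48.

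Slc11a1 (ENSMUSG00000026177, chr1:74375195-74386052, plus strand) encodes NRAMP1, which withdraws iron and manganese from the phagosome and marks phagocytes. Its CPM was 55.0, 51.7 and 53.0 in immature libraries, a narrow range, and 16.2, 20.3, 24.5 and 21.9 in mature libraries. The groups lay apart, with mature replicate 1 the lowest library. From 53.2 ± 1.68 to 20.7 ± 3.49, the log2 fold change was -1.36 (SE 0.13, 95% interval -1.67 to -1.06, edgeR adjusted p = 5.48e-05). The 2 genes of the same transporter family therefore both had negative fold changes, with intervals that did not overlap.

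**Figure D2:**
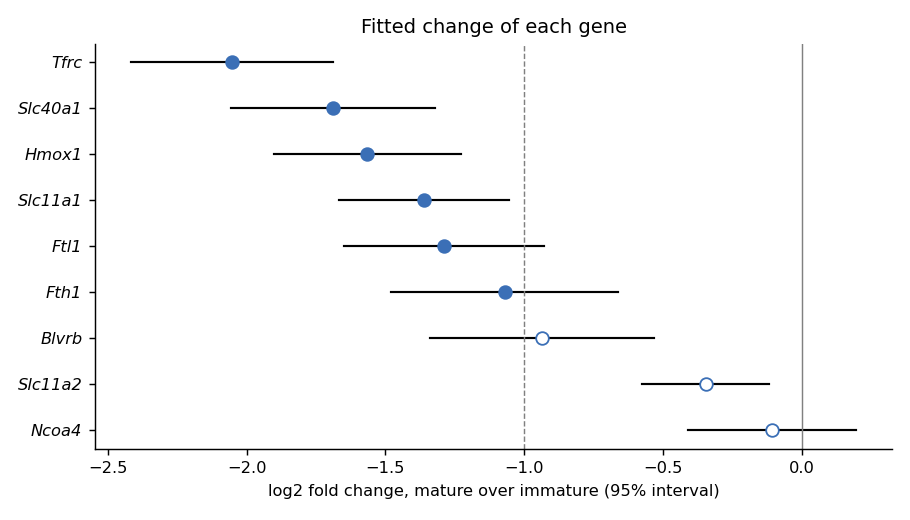
Log2 fold change of mature over immature BMDCs (x axis) with its 95% interval (bars) from the edgeR fit for each of the 9 genes (y axis), filled where the gene was called, with the fold criterion as a dashed line. The estimates run from -2.05 for Tfrc to -0.11 for Ncoa4, and the intervals of Ftl1, Fth1 and Blvrb cross the fold criterion.

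Iron storage was the most abundant function. Fth1 (ENSMUSG00000024661, chr19:9980598-9985092, plus strand), the heavy chain that oxidises iron for storage, stood at 5115, 5386 and 5301 CPM in immature libraries and at 2000, 2041, 3416 and 2571 CPM in mature libraries. Ftl1 (ENSMUSG00000050708, chr7:45457944-45459884, minus strand), the light chain that helps the iron core form, stood at 6749, 7314 and 6901 CPM and at 2549, 2397, 3816 and 2671 CPM. For both chains the immature libraries were alike, the mature libraries were all lower, and mature replicate 3 was the highest mature library. Fth1 fell from 5267 ± 139 to 2507 ± 659, with a log2 fold change of -1.07 (SE 0.18, 95% interval -1.48 to -0.66, edgeR adjusted p = 0.00129). Ftl1 fell from 6988 ± 293 to 2858 ± 649, with a log2 fold change of -1.29 (SE 0.16, 95% interval -1.65 to -0.93, edgeR adjusted p = 0.000203). Without mature replicate 3 the changes were -1.23 and -1.44. The call of Fth1 lies at the fold criterion: it was -0.98 without mature replicate 1 and without mature replicate 2, and -0.98 with no scaling beyond the library total, each with an adjusted p of at most 0.00324.

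Both chains together took 1.14, 1.23 and 1.16% of all counts in immature libraries and 0.482, 0.475, 0.697 and 0.542% in mature libraries. The share was thus 1.18 ± 0.0502% (SD, n = 3) and 0.549 ± 0.103% (SD, n = 4), and the groups did not overlap. By FPKM, Ftl1 ranked 5th of all genes in each immature library and 19th to 24th in the mature libraries. Fth1 ranked 25th to 27th and 58th to 68th. The ratio of Ftl1 to Fth1 in FPKM was 3.42, 3.52 and 3.37 in immature libraries and 3.30, 3.04, 2.89 and 2.69 in mature libraries. The mature ratios were all lower than the immature ones and more spread, at 2.98 ± 0.256 against 3.43 ± 0.0743. The size of this ratio rests on the lengths behind the FPKM, which for Fth1 is an implied 3.77 kb against a transcript of 1494 bases. In counts the ratio was 1.32, 1.36 and 1.30 in immature and 1.27, 1.17, 1.12 and 1.04 in mature libraries.

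Reads of the light chain gene can also match near-identical copies. In the table Ftl1-ps1, which is 99.6% identical over 910 bases, had 1.2 to 1.33% of the counts of Ftl1, and Ftl2-ps had 0.330 to 0.380%. Their log2 fold changes, -1.25 and -1.24, were close to that of Ftl1 itself, and how the counting divided reads between them is not given in the sources used here. The gene Gm10252 overlaps Ftl1 on the opposite strand and held 133 to 4303 counts, at most 0.966% of those of Ftl1. Ftl1 summed with all its copies kept its call. No copy of Fth1 of at least 90% identity over 300 bases was counted in the table.

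Ncoa4 (ENSMUSG00000056234, chr14:32159865-32179855, plus strand) encodes the receptor that delivers ferritin to autophagosomes, where its iron is released. It was the only one of the 9 whose groups overlapped, with 189, 170 and 179 CPM in immature and 178, 183, 126 and 180 CPM in mature libraries. Mature replicates 1, 2 and 4 lay inside the immature range and mature replicate 3 lay below it. The log2 fold change was -0.11 (SE 0.13, edgeR adjusted p = 0.549), and the 95% interval of -0.41 to 0.20 leaves room for changes in either direction. Without mature replicate 3 it was 0.029 (edgeR adjusted p = 0.651). A copy that is 99.9% identical over 1878 bases, Ncoa4-ps, held 19.2 to 20.1% of the counts of Ncoa4 in the immature libraries and 15.0 to 19.6% in the mature ones. Its own log2 fold change was -0.20 (edgeR adjusted p = 0.455), and summing both did not bring a call. Ncoa4 is therefore uncertain in its level, since the reads of the pair may be divided by the counting.

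The libraries of mature cells varied more than those of immature cells for all 9 genes. The coefficient of variation of the CPM ran from 8.23 to 26.3% in mature and from 2.64 to 10.2% in immature libraries, with Fth1 the most variable in mature cells. The distance of mature replicate 3 from the mean of the other mature libraries went with transcript length. On the log2 scale of CPM it was 0.59 for Ftl1 (968 bases), 0.62 for Blvrb (1028 bases) and 0.63 for Fth1 (1494 bases). It was 0.24 for Hmox1 (1569 bases) and 0.33 for Slc11a1 (2315 bases). It was -0.18 for Slc40a1 (3370 bases), -0.51 for Ncoa4 (4065 bases), -0.02 for Slc11a2 (4415 bases) and -0.58 for Tfrc (4890 bases). The part of transcript length in the fold changes was not tested. Without mature replicate 3, the 6 called genes were called as well. The log2 fold changes were then larger in size for Ftl1 (-1.44), Fth1 (-1.23), Hmox1 (-1.60) and Slc11a1 (-1.43). They were smaller in size for Tfrc (-1.90 against -2.05) and Slc40a1 (-1.62 against -1.69).

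**Figure D3:**
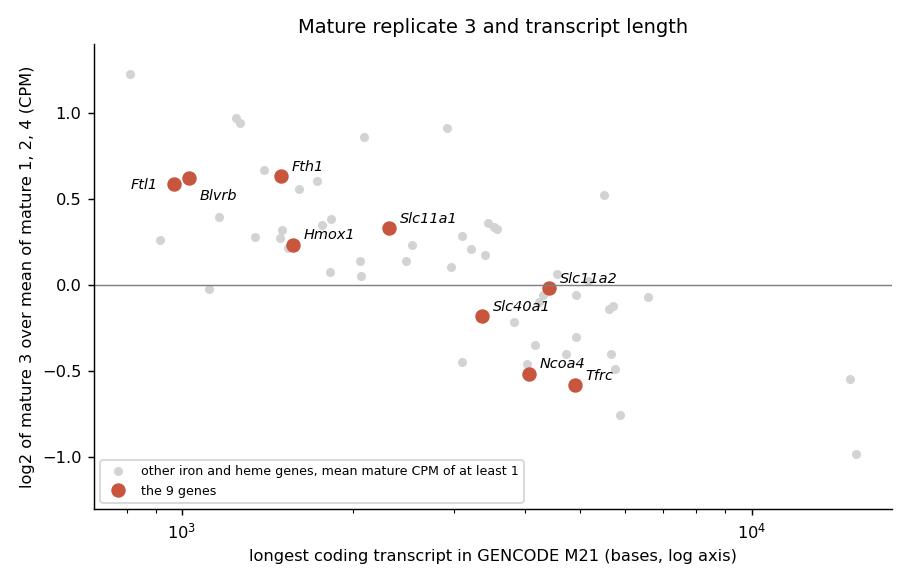
Log2 ratio of the CPM in mature replicate 3 to the mean of mature replicates 1, 2 and 4 (y axis) against the length of the longest coding transcript in bases (x axis, log scale) for the 9 genes (red) and the other iron and heme genes with a mean mature CPM of at least 1 (grey). The 3 shortest of the 9 lie at 0.59 to 0.63, and Ncoa4 and Tfrc lie at -0.51 and -0.58.

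Per length, the order of the levels in immature cells by mean FPKM was Ftl1 (4585), Fth1 (1334), Hmox1 (153), Blvrb (31.7), Ncoa4 (16.8), Slc11a1 (12.6), Tfrc (9.45), Slc11a2 (3.72) and Slc40a1 (1.33). No neighbours in this order overlapped in their FPKM over the 3 libraries. In mature cells the order was Ftl1 (2004), Fth1 (678), Hmox1 (55.4), Blvrb (17.7), Ncoa4 (16.9), Slc11a1 (5.25), Slc11a2 (3.16), Tfrc (2.46) and Slc40a1 (0.445). There Blvrb and Ncoa4 overlapped, as did Slc11a2 and Tfrc, so that the transferrin receptor passed from above to the level of DMT1. The length behind the FPKM is longer than the transcript for some genes, such as an implied 3.77 kb for Fth1 against 1494 bases of its longest coding transcript. With CPM per kb of the longest coding transcript, the order in each group was the same, with 7219 for Ftl1 and 3526 for Fth1 in immature cells.

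Other genes of iron and heme handling were taken from lists by role that hold 68 genes, of which 66 were in the table and 61 were tested. Of these 61, 4 were called higher and 7 lower, or 18% in all, beside 23.1% over all genes tested. Their median log2 fold change was -0.26. Without the mature libraries 1 and 3, 8 were called.

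In heme transport and breakdown, 2 of 12 tested genes were called lower and 1 higher, or 25% in all, near the 23.1% over all genes tested. Lrp1, a large endocytic receptor that takes up heme bound to hemopexin among many other ligands, fell from 1015 ± 82.5 to 235 ± 43.4 CPM, a log2 fold change of -2.11 (edgeR adjusted p = 8e-06). Flvcr1, a transporter first described as a heme exporter, had a log2 fold change of -1.03 (edgeR adjusted p = 0.000253), which was under the fold criterion without mature replicate 3 (-0.91), without the mature libraries 1 and 3 (-0.93), with no scaling (-0.92) and with both limma settings (-0.83 and -0.93). Hpx, which encodes hemopexin, was called higher at a log2 fold change of 1.94 (edgeR adjusted p = 0.00776) from 25, 12 and 11 counts to 45, 70, 65 and 76 counts, a low level in every library. Below the fold criterion stood the lysosomal heme transporter Slc48a1 at -0.86 (edgeR adjusted p = 0.000127) and biliverdin reductase A, Blvra, at -0.87 (edgeR adjusted p = 0.000457).

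In iron uptake, reduction and extracellular iron binding, 1 of 12 tested genes was called lower and 1 higher. That is 16.7% of the list, beside 23.1% over all genes tested. Steap3, the ferrireductase of the transferrin cycle, fell from 19.9 ± 1.01 to 4.95 ± 0.755 CPM with a log2 fold change of -2.0 (edgeR adjusted p = 7e-06), a size like that of Tfrc. Steap4, another metalloreductase, had 0 counts in the immature libraries and 4, 35, 54 and 65 in the mature libraries. Against a floor of 3 counts per library (0.051 CPM), the mature mean of 0.663 CPM was at least 13.1-fold higher (edgeR adjusted p = 0.00726). Mature replicate 1, at 0.061 CPM, was near that floor. Steap4 was lowest in mature replicate 1, and it did not pass the filter when mature replicate 2, 3 or 4 was left out. The heart muscle genes were also lowest in mature replicate 1 among mature libraries, and the part of that signal in Steap4 was not tested.

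None of 8 tested genes of heme synthesis was called, with log2 fold changes from -0.54 for Alas1, the first enzyme of the pathway, to 0.74 for Ppox. In iron export and its control, none of 4 was called. Ceruloplasmin, the copper oxidase that works with ferroportin, was just short of the fold criterion (Cp, log2 fold change -0.99, edgeR adjusted p = 0.00264). Among 8 genes of cytosolic iron sensing and chaperones none was called. The iron regulatory proteins themselves had log2 fold changes of 0.040 for Aco1 (edgeR adjusted p = 0.721) and -0.045 for Ireb2 (edgeR adjusted p = 0.808), and Fbxl5, which marks the latter for breakdown when iron is plentiful, had -0.46 (edgeR adjusted p = 0.00134). These are mRNA levels, and the activity of these proteins is set after translation.

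Among genes of mitochondrial iron and iron-sulfur clusters, Iscu, the scaffold on which the clusters are built, rose from 53.8 ± 3.57 to 152 ± 39.0 CPM, a log2 fold change of 1.5 (edgeR adjusted p = 0.000192), and stood at 210 CPM in mature replicate 3.

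Of 7 transcription factors of iron and heme genes, 3 were called lower and 1 higher. That is 57.1%, beside 23.1% over all genes tested, in a short list chosen with earlier results of these data known. Bach1, the heme-sensing repressor of Hmox1 and the ferritin genes, had a log2 fold change of -1.37 (edgeR adjusted p = 0.000405). Nfe2l2, which encodes NRF2, the activator of the same genes, fell from 229.6 ± 7.97 to 101.6 ± 5.19 CPM with a log2 fold change of -1.18 (edgeR adjusted p = 4e-06). Activator and repressor were thus both lower. Hif1a, the oxygen-regulated factor, had -1.03 (edgeR adjusted p = 0.000104), and fell just under the fold criterion without mature replicate 3 (-0.91), without immature replicate 1 (-0.996), with no scaling (-0.92), with both limma settings (-0.91 and -0.93) and without the mature libraries 1 and 3 (-0.90). Spic, a factor of iron-recycling macrophages, was called higher at 1.95 (edgeR adjusted p = 0.0226) on 4, 15 and 10 counts in immature and 33, 40, 51 and 31 counts in mature libraries. The call of Spic was lost without immature replicate 1 (edgeR adjusted p = 0.0673) and without immature replicate 3 (edgeR adjusted p = 0.0734). It was also lost without the mature libraries 1 and 3 (edgeR adjusted p = 0.0616).

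**Figure D4:**
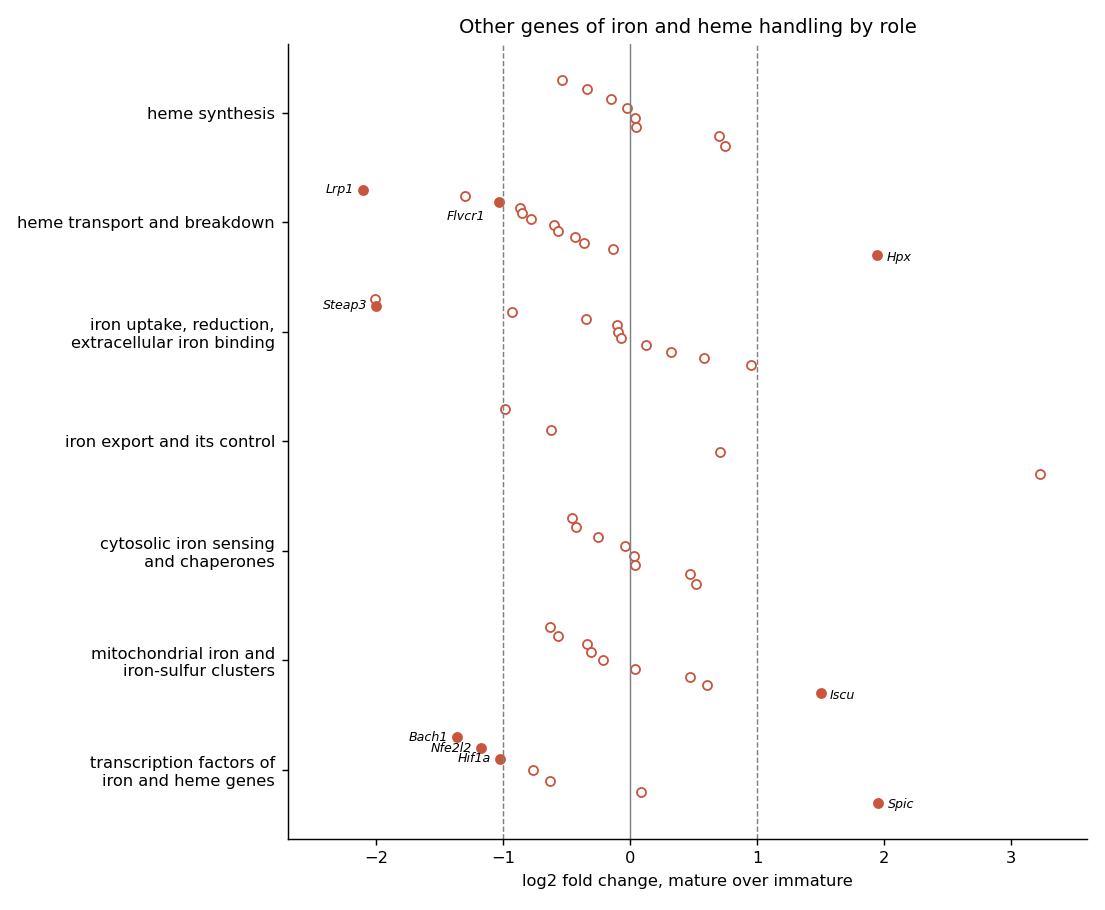
Log2 fold change of mature over immature BMDCs (x axis) for 59 of the 61 tested genes in the lists by role (y axis), filled and named where the gene was called, with the fold criteria as dashed lines. Steap4, at 0 counts in immature cells, is not drawn, 1 further gene is not reported here, and the named genes lie between -2.11 for Lrp1 and 1.95 for Spic.

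For each called gene, the gene outside these lists with the most similar profile over the 7 libraries was sought by the root mean square difference of centred log2 CPM among 17391 genes. It was P2ry14 for Hmox1 (0.0880), Wdr62 for Slc40a1 (0.107), Lrpap1 for Slc11a1 (0.0543), Ston2 for Tfrc (0.0906), Lgals3 for Fth1 (0.0591) and Ftl1-ps1, its own pseudogene, for Ftl1 (0.0503). All of these differences were small beside the fold changes, and the nearest genes had log2 fold changes of -2.21 to -1.15. As each is the smallest of 17391 differences, a small value and a like fold change follow from the search. No difference of a typical gene is given beside them, and the counts of Ftl1-ps1 may include reads of Ftl1.

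Promoters from 250 bases before to 50 after the start were given by RefSeq on GRCm38 for 6 of the 9 genes, with 11 starts. The core of the antioxidant response element, TGACNNNGC on either strand, was in 1 of these 11, a start of Ncoa4, and in 12.4% of all 32851 promoters. Hmox1, Slc40a1 and Slc11a2 were not searched. An element outside this window would be missed, so the search cannot tell whether a gene lacks one.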

How the data were processed

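RNA of flow-sorted immature (3 libraries) and mature (4 libraries) BMDCs was analysed, grouped by the labels' developmental stage. Per gene and library, the authors deposited raw counts and FPKM values, in which fragments are scaled by gene length and library total. The submitters' processing notes name cutadapt 1.9, HISAT2 2.2.1, StringTie 2.1.6, DESeq2, edgeR and mm9. The coordinates are those of GRCm38, as 24940 of 28588 genes shared with GENCODE M21 have the same position. The counting program, its strand setting and its annotation are not given in the sources used here.

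The 9 genes, the lists and the alternatives were chosen with earlier results of these data known. The genes named are all 9, every called gene of the lists, the nearest profile of each called gene, and the copies of the ferritin genes. Other genes of the lists, and the copies of Ncoa4, are named because they stood near a threshold or bear on a value, a choice made with their values in view. Some genes of the lists are counted but not reported here by name.

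The count test was edgeR 4.0.16 in R 4.3.3 (filter on low counts, TMM, quasi-likelihood test, Benjamini-Hochberg adjustment over 17461 genes). Standard errors were taken from the F statistic, as the absolute log2 fold change over the root of F. Alternatives were DESeq2 1.42.0, limma 3.58.1 on log2(FPKM + 1) and log2(FPKM + 0.1), where 3 libraries had to reach an FPKM of 1, other scaling, no filter, no fold criterion, omitted libraries, and the replicate number as a block. Each test was first tested on simulated data with 200 genes changed 4-fold, of which edgeR recovered 79.5%, DESeq2 82.5% and limma 62%. The simulation took its spread from the immature libraries alone and did not hold the wider spread of the mature libraries. Depth and floors cover counting error only. Copies were sought with BLAST 2.17.0 (at least 90% identity over 300 bases). Python 3.11.15 and matplotlib 3.10.9 were used for sequences and figures.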

Additional observations from a re-analysis of the deposited data

Results flagged for a closer look

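Of 22 items compared, the levels of genes and the share and ratio of the ferritin chains, 2 had a mature library far from the other 3 mature libraries, where chance would give about 1.1. Ncoa4 stood at 126 CPM in mature replicate 3 and at 178 CPM in the nearest other mature library, a gap of 0.900 of the range of the group. Iscu stood at 210 CPM in mature replicate 3 and at 135 CPM in the nearest other, a gap of 0.941 of the range. Both were in the library that stood apart across all genes, low for the long transcript of Ncoa4 and high for the shorter one of Iscu, and the part of transcript length in these values was not tested.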

How the results depend on the processing

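Of the 9 genes, 6 were called, and 4 to 8 were called over 16 alternatives (5 to 7 without each library in turn), each within 1.5 times. Of the 61 genes of the lists, 11 were called, 9 to 12 without each library in turn, but 5 with limma on log2(FPKM + 1), 6 with limma on log2(FPKM + 0.1), where Hpx, Spic and Steap4 were not tested, and 31 with the adjusted p criterion alone. The share of all genes called under each alternative is not given here, so these counts have no background beside them. Hmox1, Slc11a1, Tfrc and Ftl1 kept their direction and their call under every alternative run. Fth1 was under the fold criterion in 5 of 15 alternatives, at -1.0 to -0.98, and Slc40a1 in 1. Ncoa4 turned to a log2 fold change of 0.0069 (adjusted p = 0.976) with no scaling, -0.15 to 0.029 without each library in turn (0.029 without mature replicate 3) and 0.035 (adjusted p = 0.664) without the mature libraries 1 and 3, and had an adjusted p of 0.43 to 0.976 throughout. With no scaling the median of all genes moved from 0.055 to 0.159. Summing Ncoa4 and Slc11a1 with their copies was added after seeing the data. Slc11a1 kept its call and Ncoa4 still had none. The origin of same-numbered libraries is not stated. The correlations of their deviations were 0.029, -0.0011 and 0.014, and not every library correlated best with its own number. Deviations within such small groups cannot tell whether same-numbered libraries had a shared origin. With the replicate number as a block, 6 of the 9 and 12 of the 61 were called, and no call of the 9 changed. In the lists the block ended the calls of Hpx (adjusted p = 0.0532) and Spic (adjusted p = 0.0537). Depth limits Hpx, Spic and Steap4, which had at most 76 counts in a library.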
